A study of Mus musculus with 2 samples.

Results

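Transglutaminases and peptidylarginine deiminases are the enzymes that harden the proteins of the outer skin and of the hair. The set held the transglutaminase genes Tgm1, Tgm2, Tgm3 and Tgm5 and the deiminase genes Padi1, Padi2, Padi3 and Padi4. These were chosen by name, with earlier results of these data known. Of these 8 genes, 7 had a transcript cluster with 1 gene symbol in the platform annotation and were measured, out of 22180 genes measured in all. Padi1 had no such cluster, as its 2 clusters also carry the symbol Gm13032, so it is left out of the main results. RNA came from back skin of male BALB/cAJcl mice aged 7 weeks, on 1 Affymetrix Mouse Gene 2.0 ST array from a saline control and 1 from mice given FGF18. This secreted growth factor is linked, in the title of the series, to the resting phase of hair follicles. In the treated course, hair was removed to start growth (anagen), 100 µg of FGF18 went into the peritoneum 6 days later (its saline contained 5 µg/µl heparin), γ-rays at 6 Gy were given to the whole body after a further 24 h, and skin was taken 4 h after that. The labels call the other sample a saline control and leave unsaid which steps of this course its mice went through, hair removal, heparin and irradiation included, and how many animals each sample held. FGF18 and any such difference therefore cannot be told apart.

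Transglutaminases join glutamine to lysine side chains and so weld proteins into an insoluble sheet under calcium control. In the upper epidermis this sheet is the cornified envelope, and in the follicle the same chemistry hardens the inner root sheath, the sleeve around the growing hair, and the medulla, its core. Deiminases, which also need calcium, turn arginine into citrulline in filaggrin, keratins and trichohyalin, which loosens these proteins and alters how they are cross-linked and broken down. In this bulk tissue, fewer cells of a type and less RNA per cell cannot be told apart.

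The promoters of the 3 members with the largest differences are shown because these genes lay on opposite sides of the comparison, Tgm1 and Tgm3 lower and Padi3 higher on the FGF18 array. Each line gives the 250 bases before an annotated RNA start, 5′ to 3′ on the gene's strand, from RefSeq (GRCm38.p6), where 7 of the 8 genes had an entry. Capitals mark matches to the CCAAT box, the GC box GGGCGG, the AP-1 motif TGANTCA or the TATA box TATAAA, searched on both strands, with no match overlapping another.

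Tgm1 (chr14:55713493-55713742, minus strand): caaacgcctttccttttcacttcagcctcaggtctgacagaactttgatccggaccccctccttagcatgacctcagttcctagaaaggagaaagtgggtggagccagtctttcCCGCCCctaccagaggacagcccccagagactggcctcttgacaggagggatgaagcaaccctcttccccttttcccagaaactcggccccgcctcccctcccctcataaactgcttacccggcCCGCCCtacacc

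Tgm3 (chr2:130012090-130012339, plus strand): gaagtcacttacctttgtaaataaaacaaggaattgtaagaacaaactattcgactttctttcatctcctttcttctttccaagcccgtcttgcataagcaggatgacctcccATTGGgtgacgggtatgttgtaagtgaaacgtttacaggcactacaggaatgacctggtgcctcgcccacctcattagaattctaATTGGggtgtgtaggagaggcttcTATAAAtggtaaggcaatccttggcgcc

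Padi3 (chr4:140810649-140810898, minus strand): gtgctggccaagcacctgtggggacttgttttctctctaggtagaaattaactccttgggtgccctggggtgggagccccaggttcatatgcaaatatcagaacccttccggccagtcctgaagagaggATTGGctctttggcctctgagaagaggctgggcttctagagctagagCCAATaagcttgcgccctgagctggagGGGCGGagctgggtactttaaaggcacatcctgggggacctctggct

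The Tgm1 window held GGGCGG on the opposite strand at 136 to 131 and at 12 to 7 bases before the start, and no CCAAT. RefSeq lists another Tgm1 start downstream, whose window held 1 CCAAT. The Padi3 window held CCAAT on the gene's strand at 74 to 70 bases and on the opposite strand at 121 to 117 bases, and GGGCGG at 47 to 42 bases before the start. The Tgm3 window held CCAAT on the opposite strand at 137 to 133 and 52 to 48 bases, and TATAAA at 28 to 23 bases. Of the other genes, Padi4 was the only member with TGANTCA, at 54 to 48 bases before its start. Over all 32851 windows of this length, 33.8% held CCAAT, 32.7% GGGCGG, 6.75% TGANTCA and 12.4% TATAAA. These matches describe letters, not bound sites, and both the lower and the higher genes held CCAAT or GGGCGG, which are common.

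The comparison asks how the enzyme transcripts of skin differed after FGF18. Values are RMA intensities in arbitrary units on a linear scale, each from 1 array. With no replicates there is no significance test and no spread between animals. A difference is the log2(intensity + 1) value of FGF18 minus that of saline. Folds are taken from this difference, so they include the added 1. They are smaller than the plain ratio of the intensities, most of all for dim genes. A fold is given only where both values reached their array's median intensity, 14.0 for saline and 13.8 for FGF18. The disagreement between separate clusters of the same gene gives a partial error: over 319 genes it had a standard deviation of 0.24 per cluster. Differences of 95% of the 11090 genes whose mean level reached the median over genes (4.15) lay between -0.81 and 0.65, with a median of 0.07. Of these brighter genes 59.4% were higher and 38.0% lower, which is the background for counts of genes at that level. For counts that include dim genes no such share was computed, and the median difference over all 22180 genes was 0.00. The tissue label was checked first: 9 of 9 markers of suprabasal and 5 of 5 measured markers of basal keratinocytes reached the median intensity on both arrays.

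Of the epidermal transglutaminases, Tgm1 differed most. Tgm1 encodes the membrane-bound enzyme of the upper epidermis, whose loss causes lamellar ichthyosis. It read 148 in saline and 72.7 after FGF18, a difference of -1.02, or 2.02-fold lower. That is 4.18 times the standard deviation between clusters, outside the central 95% of genes, and it ranked 180 from the lowest among the 11090 genes. It stood close to the 2-fold limit, and with a pseudocount of 16 in place of 1 the difference was -0.89, short of 2-fold.

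Tgm3 and Tgm5 were lower by less. Tgm3 encodes a soluble enzyme that is cut to become active and serves both the epidermis and the hair follicle. It read 109 in saline and 72.7 after FGF18, a difference of -0.57 (1.49-fold lower), and ranked 538 from the lowest. Tgm5, an epidermal enzyme whose loss causes peeling of acral skin, read 33.0 in saline and 23.4 after FGF18, a difference of -0.48 (1.40-fold lower), and ranked 722. These differences are 2.35 and 1.97 times the standard deviation between clusters, and both lie within the central 95% of genes. The direction was the same for Tgm1, Tgm3 and Tgm5, while the sizes ran from -1.02 to -0.48.

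Tgm2, the widely expressed tissue transglutaminase of endothelium, smooth muscle, fibroblasts and macrophages, was nearly level. It read 53.1 in saline and 50.3 after FGF18, a difference of -0.07, which is smaller than the standard deviation between clusters. Markers of its usual cells did not share a direction. Endothelial markers had 5 of 8 higher and summed to 124 in saline and 117 after FGF18, smooth muscle and pericyte markers had 4 of 7 higher (sums 527 and 585), fibroblast markers had 5 of 7 lower (sums 1123 and 1018), and macrophage markers had 8 of 9 higher (sums 195 and 250). The endothelial count rests on dim genes: the 3 that reached the median level had a median of -0.43, against 0.21 over all 8. The smooth muscle and pericyte sums rest mostly on Des, which read 317 in saline and 347 after FGF18 and was named after its values were seen.

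Among the deiminases, Padi3 lay on the other side. Padi3 encodes the enzyme that citrullinates trichohyalin in the inner root sheath and medulla and the calcium-binding protein S100A3 in the hair cuticle. In people, PADI3, TGM3 and TCHH are the genes of uncombable hair syndrome. Padi3 read 45.0 in saline and 77.2 after FGF18, a difference of 0.77 (1.70-fold higher). That is 3.15 times the standard deviation between clusters and outside the central 95% of genes, and it ranked 131 from the highest. With a pseudocount of 16 the difference was 0.61.

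**Figure D1:**
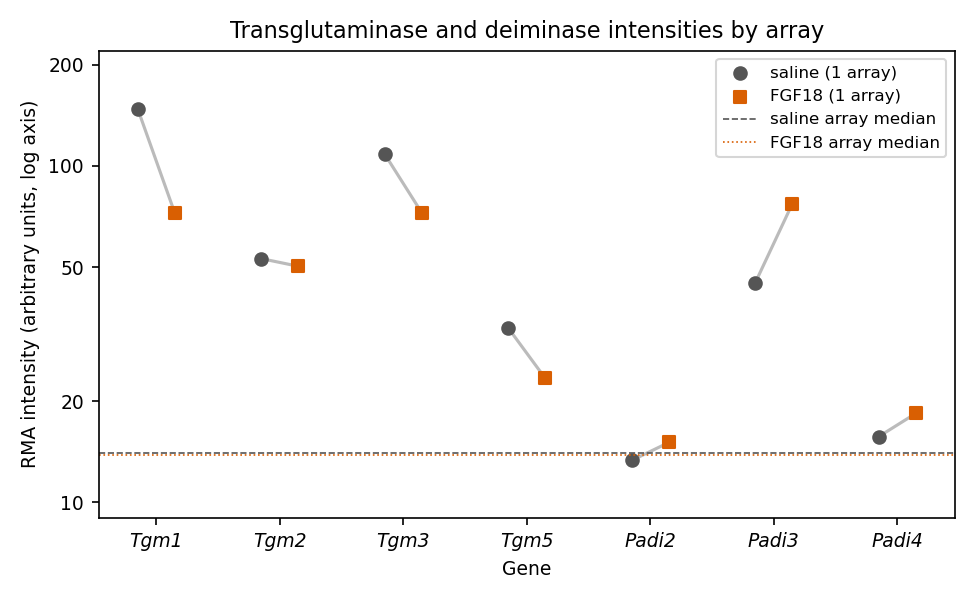
RMA intensity (log axis, arbitrary units) of each measured enzyme gene on the saline array (circles) and the FGF18 array (squares), with each array's median intensity as a horizontal line. Tgm1, Tgm3 and Tgm5 are lower on the FGF18 array, Padi3 is higher (45.0 against 77.2), Tgm2 is nearly level, and Padi2 and Padi4 lie close to the medians; each point is 1 array, with no error bar.

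Padi4 and Padi2 were dim. Padi4, the deiminase of neutrophils and of histones, read 15.7 in saline and 18.4 after FGF18, a difference of 0.22 (1.16-fold higher), which is under the standard deviation between clusters. Neutrophil markers were dim as well: 1 of 10, the granule protease gene Prtn3, reached the median on both arrays, and the list summed to 117 in saline and 102 after FGF18. Mpo and Elane, also on the list, read 10.8 in saline and 12.2 after FGF18, and 8.62 on both arrays, all below the array medians. Over the list 6 of 10 were lower and 3 higher, and the lowest was Cxcr2, a chemokine receptor gene, which read 19.7 in saline and 8.85 after FGF18, the latter below the median. Padi2, known from muscle, brain and macrophages, was the mean of 2 clusters, of which the dimmer went from 9.73 to 11.3 and the brighter from 18.1 to 19.9, with differences of 0.20 and 0.13. A further Padi2 cluster also carries the symbol Gm13031 and was left out under every alternative. The Padi2 mean of 13.3 in saline lay below the array's median, so no fold is given. Skeletal muscle markers, by contrast, were well above it, 8 of 8 on both arrays, with sums of 4784 and 4586.

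Over the 7 measured genes, 4 were lower and 3 higher on the FGF18 array, and the median difference was -0.07, that of Tgm2, beside 0.00 over all 22180 genes. Among these 7, the lower genes were all transglutaminases and the higher ones all deiminases, and only 1 member of each family passed 1.5-fold. The differences of Tgm2, Padi2 and Padi4 were smaller than the standard deviation between clusters. Of the 6 other family genes, 4 transglutaminase relatives were higher, Padi6 was lower and Tgm4 was equal, all within this standard deviation. The split also leaves out Padi1. With clusters of several symbols counted under their first symbol, Padi1 came in, and the median over the 8 genes was -0.083. The other 7 values were unchanged, so this median is the midpoint of Padi1 and Tgm2. It puts Padi1 just below Tgm2, nearly level and within the standard deviation between clusters. At 2-fold, 1 of 7 was lower, Tgm1, and none was higher, with the same counts over the 6 that reached the median level. Of the 11090 brighter genes, 1.65% were lower and 0.379% higher by that much. At 1.5-fold 1 of 7, and 1 of those 6, was lower and 1 higher, where 4.63% and 3.64% of the brighter genes were. Tgm3 stood just short of that limit at 1.49-fold. Of the 7 genes 6 reached the median level of 4.15 and Padi2 did not. With so few genes, these counts describe the genes and show no property of the families.

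**Figure D2:**
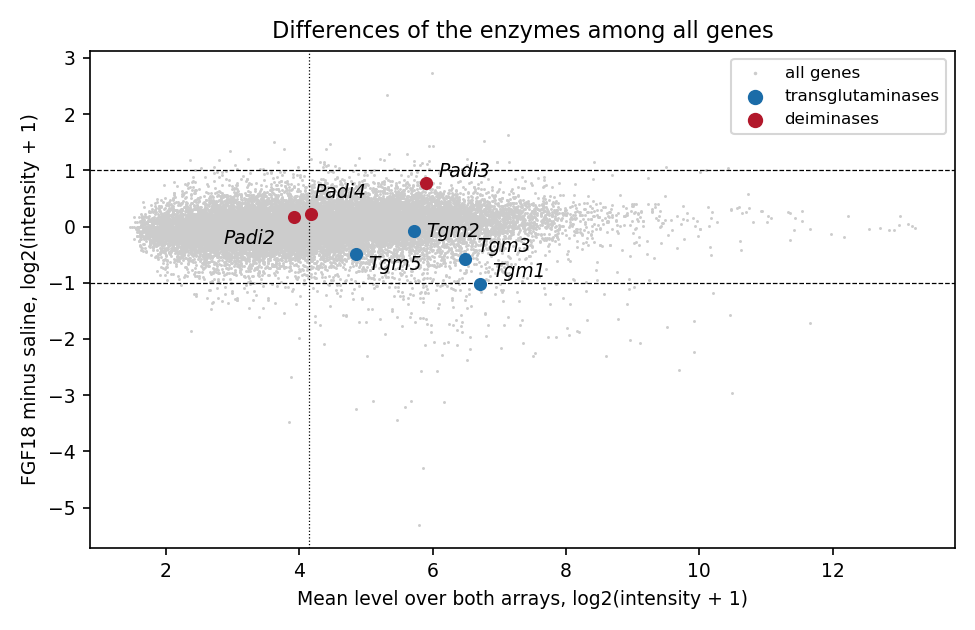
Difference (FGF18 minus saline, log2(intensity + 1)) against mean level over both arrays for all 22180 genes (grey), with transglutaminases in blue and deiminases in red; dashed lines mark 2-fold and the dotted line the median level of 4.15. Tgm1 sits at the lower dashed line at -1.02, Padi3 is the highest member at 0.77, and the other members lie within the grey cloud between -0.57 and 0.22.

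The other genes of both families showed no difference of that size. Tgm6, an enzyme known from the nervous system, read 30.7 in saline and 34.7 after FGF18, a difference of 0.17, opposite in sign to that of Tgm3. F13a1, the A chain of clotting factor XIII, which macrophages make, read 25.1 and 25.5. Tgm7, next to Tgm5, read 12.2 and 13.8, Epb42, an inactive relative in the red cell membrane, 9.06 and 9.91, and Padi6, the deiminase of the egg, 9.77 and 8.24. Tgm4, the prostate enzyme, read 7.48 on both arrays, and is among 2026 clusters whose values were exactly equal on both. Except for Tgm6 and F13a1, these genes were below the median on at least 1 array.

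The deiminase genes lie side by side on chromosome 4 of GRCm38.p6, in the order Padi6, Padi4, Padi3, Padi1, Padi2, with Sdhb, a subunit gene of respiratory complex II, beyond Padi2. Padi3 at 0.77 lay between the Padi4 value of 0.22 and Padi1, which had no cluster of its own, with Padi2 at 0.17 and Sdhb at 0.21. These values share a sign and Padi3 is the largest of them. Padi6 at the other end was at -0.22, and Padi1, by its shared clusters, was nearly level, just below Tgm2. Tgm1 on chromosome 14 at -1.02 lay between Tinf2, a telomere protein gene at 0.05, and Rabggta, a Rab prenylation gene at -0.08. Tgm2 had Rprd1b beside it, with equal values on both arrays. The measured neighbours of Tgm3 and Tgm5 (AU015228, Epb42 and Tgm7) and D630003M21Rik beside Tgm2 were below the median level. An annotated long non-coding RNA, Gm52482, lies within the span of Padi3, and no source used here gives the strand that the probes read.

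Transcripts of the proteins that these enzymes modify spread more widely than those of the enzymes, and split by tissue. Genes of cornified envelope substrates were mostly lower on the FGF18 array: 35 of 41 measured were lower and 6 higher, with a median difference of -0.83. Among the 27 brighter ones, those reaching the median level, the median was -1.67. Of these, 16 were lower by 2-fold or more, where 1.65% of all brighter genes were. Rptn, which encodes repetin, went from 88.0 on the saline array to 8.33, and Lce1e, of the late cornified envelope family, from 100.2 to 10.7, with both FGF18 values below the array median. Sprr1b, a small proline-rich protein gene and a transglutaminase substrate, read 149 and 16.5 (8.58-fold lower). The highest differences among the brighter genes belonged to Crnn, the cornulin gene (0.64), Sprr1a (0.56) and Sprr4 (0.24). Flg, the main filament-aggregating substrate of deiminases, read 2107 and 447, and Ivl, the involucrin gene and a substrate of Tgm1, read 335 and 79.2, 4.19-fold lower; Flg and Ivl were chosen after their values were seen.

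Tgm1 lay nearer to zero than most markers of the same layer. Suprabasal keratinocyte markers had 9 of 9 lower, with a median of -1.38 and sums of 15442 in saline and 4261 after FGF18. All 9 reached the median level, where 38.0% of genes were lower. Of these 9 markers 7 were lower than Tgm1, and Tgm1 stood 0.37 above their median, Tgm3 0.81 and Tgm5 0.90. All 9 were lower than Tgm3 and than Tgm5. Krt1, Krt10, Lor, Flg and Ivl are in the substrate list too, so these lists are not separate observations. Basal markers had 4 of 5 higher, with a median of 0.14. The part of these cells in the values of Tgm1, Tgm3 and Tgm5 was not tested.

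Substrates in the follicle were higher on the FGF18 array, as Padi3 was. All 11 measured genes were higher, with a median of 0.96, and 4 passed 2-fold. These 4 were among the 10 that reached the median level, where 59.4% of all genes were higher and 0.379% passed 2-fold upward. Krt28, Krt72 and Krt27, keratins of the inner root sheath, had the highest differences, 1.16, 1.14 and 1.06. The lowest among brighter members were Tchhl1, a trichohyalin relative (0.24), Krt25 (0.85) and S100a3 (0.86). S100a3 encodes the cuticle substrate of Padi3 and read 142 in saline and 258 after FGF18, and Tchh, the trichohyalin gene, named here after its value was seen, read 736 and 1435. Padi3 stood 0.19 below the median of these 11 genes, with 9 of them higher than it and 2 lower.

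Follicle markers lay on the same side as Padi3. Inner root sheath markers had 7 of 8 higher, with sums of 3128 and 6173, and hair shaft markers 8 of 9 higher, with sums of 666 and 1013. All of them reached the median level, where 59.4% of genes were higher. The difference of Padi3 lay 0.22 below the inner root sheath median of 0.98 and 0.15 above the hair shaft median of 0.61. Tgm3, which serves the same structures, was lower than every one of these 17 markers, at -0.57. Their part in the value of Padi3 was not tested. Since several of these markers are also in the substrate list, they are not separate support.

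**Figure D3:**
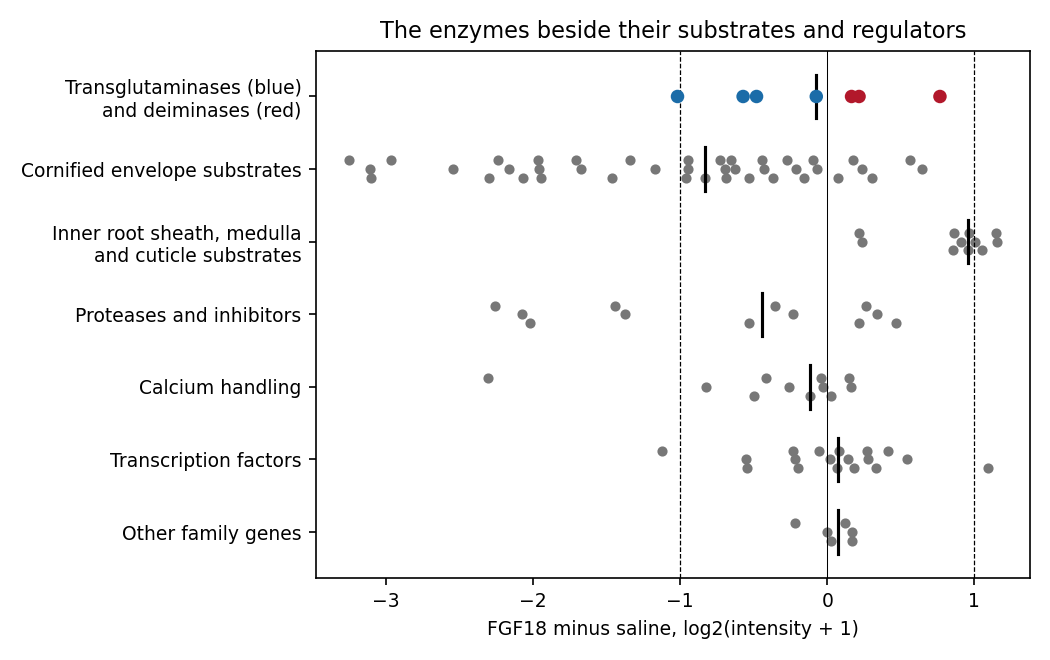
Difference (FGF18 minus saline, log2(intensity + 1)) of each measured gene of the enzyme families and of 6 related lists; each dot is a gene, dim genes included, each black bar is the list's median, and dashed lines mark 2-fold. Cornified envelope substrates spread from -3.25 to 0.64 and follicle substrates from 0.22 to 1.16, so these ranges overlap. The enzymes spread from -1.02 to 0.77.

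Proteases and inhibitors that act on these enzymes or on their products were uneven. Of 12 measured, 8 lay lower and 4 lay higher, where 38.0% and 59.4% of all brighter genes did. All 12 reached the median level. Their median was -0.44, and 5 were at least 2-fold lower, where 1.65% of all brighter genes were. The lowest were Casp14, a protease that helps break down filaggrin (-2.26), Asprv1, an aspartic protease that cuts filaggrin (-2.08), and Spink5, an inhibitor of epidermal kallikreins (-2.02). Ctsd and Ctsl, cathepsin genes known to act on Tgm1 and Tgm3, differed by -0.35 and -0.23, and Cst6, a cystatin that restrains cathepsin L and legumain, by -0.53. Lgmn, the legumain gene, St14, the matriptase gene, and Capn2, a calpain gene, were highest, at 0.47, 0.34 and 0.27. Blmh, which takes apart citrullinated filaggrin, read 427 in saline and 164 after FGF18, 2.59-fold lower. Ctsd, Ctsl, Cst6 and Blmh were chosen after their values were seen.

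Genes of calcium handling, on which the activity of both families depends, mostly differed little. Of 11 measured, 8 lay lower and 3 lay higher, around a median of -0.12. For the 10 that reached the median level, the background was 38.0% lower and 59.4% higher. Calm4, an epidermal calmodulin-like gene, was 4.94-fold lower (864 in saline, 174 after FGF18), and Calml3 and Orai1, a calcium channel gene, were at -0.83 and -0.50. Among the 10 brighter genes, the calcium pump gene Atp2c1 (0.16), the channel gene Trpv3 (0.02) and the calcium sensor gene Stim1 (-0.03) had the highest differences.

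Transcription factors known to act on genes of these families or in the same layers had 11 of 18 higher and 7 lower, with a median of 0.07, close to the shares (59.4% and 38.0%) and the median (0.07) of all brighter genes. Grhl3, a factor that activates Tgm1 in epidermis, was the lowest and read 124 in saline and 56.5 after FGF18 (2.18-fold lower). Klf4 and Cebpa, factors of late differentiation, were at -0.55 and -0.54. At the other end stood Hoxc13, which drives hair genes, with 18.5 in saline and 40.5 after FGF18 (2.13-fold higher), then Vdr, the vitamin D receptor gene, at 0.54 and Tfap2a at 0.42.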

How the data were processed

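Per the labels, biotin-labelled targets were made from Trizol-extracted RNA. The authors summarised probes with RMA in Affymetrix Expression Console, per the submitters' processing notes; versions and genome build: not given in the sources used here. Values as deposited are intensities, judged linear from their range (1.39 to 11532), though a log2 scale had been foreseen, so log2(intensity + 1) was used. The number of arrays, 1 per group, limits the precision. Of 41345 transcript clusters, 23521 had 1 symbol in the platform annotation, 1814 several and 16010 none; clusters of a symbol were averaged on the log2 scale. Groups came from the sample labels. No test was possible. Promoters and gene order came from RefSeq tables (GRCm38.p6).

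The members and lists were chosen with earlier results of these data known. Every member and family gene was named, and from each list the 3 lowest and 3 highest differences among genes reaching the median level. The markers Prtn3, Mpo, Elane, Cxcr2 and Slc4a1 fall outside this rule, as none reached the median level over genes. Other exceptions are marked where they occur. Alternatives were a pseudocount of 16 or none, centring, a loess trend (span 0.3), the brightest cluster, clusters with several symbols, 1.5-fold, and other level filters. Steps used Python 3.11.15, pandas 2.3.3 and statsmodels 0.14.6, and were tested on simulated data. Red cell markers had 1 measured gene of 5, Slc4a1, which read 10.4 in saline and 6.43 after FGF18.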

Additional observations from a re-analysis of the deposited data

How the results depend on the processing

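Over 6 alternatives for values and clusters, no difference of the 7 genes moved by more than 0.24, the standard deviation between clusters. Their signs were fixed by construction under the pseudocounts, and centring subtracted 0. Among these 7 genes, the choice of clusters could touch only Padi2, whose cluster shared with Gm13031 entered no alternative. Trend subtraction was thus the alternative that could turn the sign of the others, and it turned none. Tgm1 ran from -1.12 to -0.89, Tgm3 from -0.68 to -0.49, Tgm5 from -0.54 to -0.32, Tgm2 from -0.18 to -0.06, Padi2 from 0.08 to 0.18, Padi3 from 0.61 to 0.78 and Padi4 from 0.12 to 0.23. With a pseudocount of 16, 0 members were at least 2-fold lower in place of 1, because Tgm1 stood close to the limit, and the counts over the brighter genes were 111 lower and 13 higher in place of 183 and 42. At 1.5-fold, 1 member was higher in place of 0, and over the brighter genes the counts were 514 lower and 404 higher. With a filter at the 75th percentile of level, 27 of 5545 genes were at least 2-fold higher and 146 lower. The median difference over the members was -0.28 over the 6 brighter ones and -0.18 after trend subtraction. Counting clusters of several symbols under their first symbol added Padi1, and the median over the 8 genes was -0.083. As the other 7 values stayed the same, Padi1 lay just below Tgm2 and was nearly level too. No paired analysis was possible because each group has 1 array. The signal over background limits Padi2 and Padi4, which lay near the array medians.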
